A study of Rattus norvegicus with 88 samples.

Results

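Neuropeptide genes that mark interneurons of the cortex were followed through RNA-Seq of the orbitofrontal cortex from 80 heterogeneous stock (HS) rats. HS rats are an outbred stock bred from inbred founder strains, so each rat carries its own mix of founder haplotypes. The genes were taken by their Ensembl identifiers and comprised Sst (ENSRNOG00000001837), Npy (ENSRNOG00000046449), Vip (ENSRNOG00000018808), Cck (ENSRNOG00000019321), Crh (ENSRNOG00000012703) and Tac1 (ENSRNOG00000007374). All 6 had a row among the 17123 genes of the table, and all 6 were above 0 in every library.

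The rats comprised 41 males and 39 females, were group housed and had received no drug or behavioral treatment. Tissue from both hemispheres, from the ventral and lateral orbital areas, was taken out of frozen sections of each brain, and 1 library was made per rat. The labels gave a rat batch to each animal, with no account of what a batch was. There were 15 rats in batch 2 (11 male, 4 female), 22 in batch 3 (10 male, 12 female), 26 in batch 4 (12 male, 14 female), 16 in batch 6 (8 of each sex) and a single female in batch 5. Because this was bulk tissue, fewer cells of a type and less RNA per cell cannot be told apart.

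GABA-releasing interneurons of the cortex package a peptide beside their fast transmitter and release it mainly when they fire strongly. Sst (somatostatin) marks interneurons that contact the dendrites of pyramidal cells, and part of these cells also make Npy (neuropeptide Y), a peptide shared with neurogliaform cells. Vip (vasoactive intestinal peptide) marks a separate class that mainly inhibits other interneurons, including the somatostatin cells. Cck (cholecystokinin) marks a class of basket cells, but its mRNA is also made by many pyramidal neurons. Crh (corticotropin releasing hormone), known best as the hypothalamic signal of the stress axis, is made in the cortex by scattered interneurons, many of which also make Vip. Tac1 encodes the precursor of substance P and neurokinin A and is found in some cortical interneurons and, at a high level, in striatal neurons.

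Several of these genes are classic targets of cyclic AMP signalling, which acts on DNA through the cyclic AMP response element (CRE), bound by CREB. The promoters are printed because Sst and Npy moved together across rats below, while Vip did not move with them. RefSeq on build GRCr8 gave a promoter for 4 of the 6 genes. The windows, all on the + strand, lie at chr11:90461296-90461565 for Sst, chr4:80211861-80212130 for Npy, chr1:44470230-44470499 for Vip and chr4:36645333-36645602 for Tac1. Each runs from 250 bases before the RefSeq start to 20 bases after it, 5′ to 3′, with CRE letters in capitals.
Sst: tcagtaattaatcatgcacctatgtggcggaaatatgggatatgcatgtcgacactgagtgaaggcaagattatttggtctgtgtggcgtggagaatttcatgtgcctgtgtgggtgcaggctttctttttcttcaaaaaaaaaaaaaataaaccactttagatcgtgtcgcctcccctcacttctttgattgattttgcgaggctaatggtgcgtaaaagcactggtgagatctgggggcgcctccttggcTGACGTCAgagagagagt
Npy: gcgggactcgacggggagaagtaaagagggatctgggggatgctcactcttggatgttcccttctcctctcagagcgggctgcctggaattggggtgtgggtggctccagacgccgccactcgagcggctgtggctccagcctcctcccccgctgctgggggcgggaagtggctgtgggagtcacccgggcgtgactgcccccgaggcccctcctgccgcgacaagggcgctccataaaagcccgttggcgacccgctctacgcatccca
Vip: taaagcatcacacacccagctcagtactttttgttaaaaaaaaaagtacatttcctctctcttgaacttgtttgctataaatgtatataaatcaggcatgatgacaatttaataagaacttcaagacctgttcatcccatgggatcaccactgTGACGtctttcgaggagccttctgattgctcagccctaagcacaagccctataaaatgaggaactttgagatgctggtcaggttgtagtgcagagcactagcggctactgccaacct
Tac1: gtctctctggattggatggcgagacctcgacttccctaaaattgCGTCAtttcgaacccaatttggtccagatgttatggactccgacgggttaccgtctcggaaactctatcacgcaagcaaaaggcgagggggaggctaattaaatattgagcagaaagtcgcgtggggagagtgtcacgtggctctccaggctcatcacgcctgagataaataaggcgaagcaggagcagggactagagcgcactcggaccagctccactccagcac

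The search covered both strands for the palindrome TGACGTCA and for its shorter core TGACG, which reads CGTCA on the other strand and lies inside the palindrome. Over the 33469 RefSeq promoters of the same 270 bases, 1.76% held the palindrome and 19.6% held the core. The Sst window held the palindrome at bases 3 to 10 after the RefSeq start. Positions depend on that start, and whether transcription begins there was not checked. The Vip window held the core at -97 to -93 and the Tac1 window held it on the opposite strand at -206 to -202, while the Npy window held neither. These matches describe the letters of the reference and not binding in these rats.

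Levels are given as normalized counts, which is the deposited log2 value turned back to the linear scale less its pseudocount of 1. They are not divided by transcript length, so they are compared between rats and not between genes. Over the 80 rats, Sst ran from 1429 to 4479 with a median of 2678, and Npy ran from 514 to 1380 with a median of 893. Vip ran from 763 to 1547 with a median of 1123.5, and Cck ran from 3404 to 13132 with a median of 7104. Crh, the lowest count of the 6, ran from 27 to 169 with a median of 81, and Tac1 ran from 81 to 279 with a median of 148.5. Between the lowest and the highest rat this was a 2.03-fold range for Vip, 2.68-fold for Npy, 3.13-fold for Sst, 3.44-fold for Tac1, 3.86-fold for Cck and 6.26-fold for Crh. Vip was thus the narrowest and Crh the widest. Depth, recovered from the steps between the deposited values, lay between 5.67 and 25.6 M reads per library, and its batch medians were 16.3, 16.8, 18.7 and 19.3 M in batches 2, 3, 4 and 6 (M stands for mega). Those medians moved in the order opposite to the levels of Sst and Cck described next. The part of depth in those levels was not tested beyond a model with depth as a term, which kept the call for both genes.

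The first question was whether peptide levels differed between the rat batches. Cck came first by its p-value. Its normalized count in batch 2 ran from 7581 to 13132 with a median of 8717, in batch 3 from 6125 to 10445 (median 8219), in batch 4 from 3688 to 7725 (median 5973) and in batch 6 from 3404 to 7100 (median 4861). Every rat of batch 6 lay below every rat of batch 2, while batches 3 and 4 overlapped. The log2 difference of batch 6 from batch 2 was -0.85 (SE 0.08, limma adjusted p = 1.91e-14). Here limma fits a linear model to each gene with spread information shared across genes, sex was a term, and p was adjusted over all 17123 genes with a threshold of 0.05. The deposited scale holds the pseudocount, so a difference of a low gene such as Crh is slightly understated.

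Sst, the dendrite-targeting class marker, followed the same order. Its normalized count ran from 2862 to 4445 in batch 2 (median 3542), from 2337 to 4479 in batch 3 (median 3172), from 1432 to 3383 in batch 4 (median 2441) and from 1429 to 2852 in batch 6 (mean of 10.98 ± 0.31 on the log2 scale, SD, n = 16, against 11.77 ± 0.16 in batch 2, n = 15). Again no rat of batch 6 reached the lowest rat of batch 2, though the margin was small. The log2 difference of batch 6 from batch 2 was -0.79 (SE 0.09, limma adjusted p = 4.89e-12). Among all genes, 2.17% had batch 6 wholly below batch 2 and 5.09% had these batches apart in either direction.

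Npy, which part of the somatostatin cells also make, was lower in batches 4 and 6 but with overlap. Its normalized count ran from 673 to 1380 in batch 2 (median 1048), from 864 to 1347 in batch 3 (median 1033.5), from 514 to 1053 in batch 4 (median 806) and from 566 to 1151 in batch 6 (median 832). The lowest rat of batch 2 lay below most rats of batch 6, and it was the library with the lowest depth of the series. On the log2 scale batch 6 less batch 2 was -0.41 (SE 0.08, limma adjusted p = 2.42e-05).

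Crh, the stress-axis peptide, was at the lowest counts and its batches overlapped. It ran from 57 to 151 normalized counts in batch 2 (median 101), from 59 to 169 in batch 3 (median 89.5), from 27 to 125 in batch 4 (median 72.5) and from 33 to 90 in batch 6 (median 52.5). The upper rats of batch 2 stood above all of batch 6. On the log2 scale batch 6 less batch 2 was -0.87 (SE 0.15, limma adjusted p = 1.05e-06).

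Tac1, the substance P precursor, had a median of 202 normalized counts in batch 2 with a highest rat at 279 and a lowest at 7.12 on the log2 scale, and it ran from 126 to 240 in batch 3 (median 153). Its counts were from 81 to 222 in batch 4 (median 133) and from 107 to 162 in batch 6 (median 141.5). Batch 2 was highest by its median and shared only the lower end of its range with batch 6. Batch 6 less batch 2 came to -0.52 in log2 units (SE 0.10, limma adjusted p = 1.04e-05).

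Vip, the marker of interneurons that inhibit other interneurons, showed no such order. It ran from 763 to 1457 normalized counts in batch 2 (median 1117), from 956 to 1519 in batch 3 (median 1146.5), from 845 to 1422 in batch 4 (median 1108.5) and from 832 to 1442 in batch 6 (median 1157.5). All batches overlapped over nearly their whole range. Batch 6 less batch 2 came to 0.06 in log2 units (SE 0.08, limma adjusted p = 0.516). The single female of batch 5 had the highest Vip of all rats at 1547 normalized counts, beside 2586 for Sst, 1041 for Npy, 6491 for Cck, 78 for Crh and 117 for Tac1, and this rat entered no batch test.

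**Figure D1:**
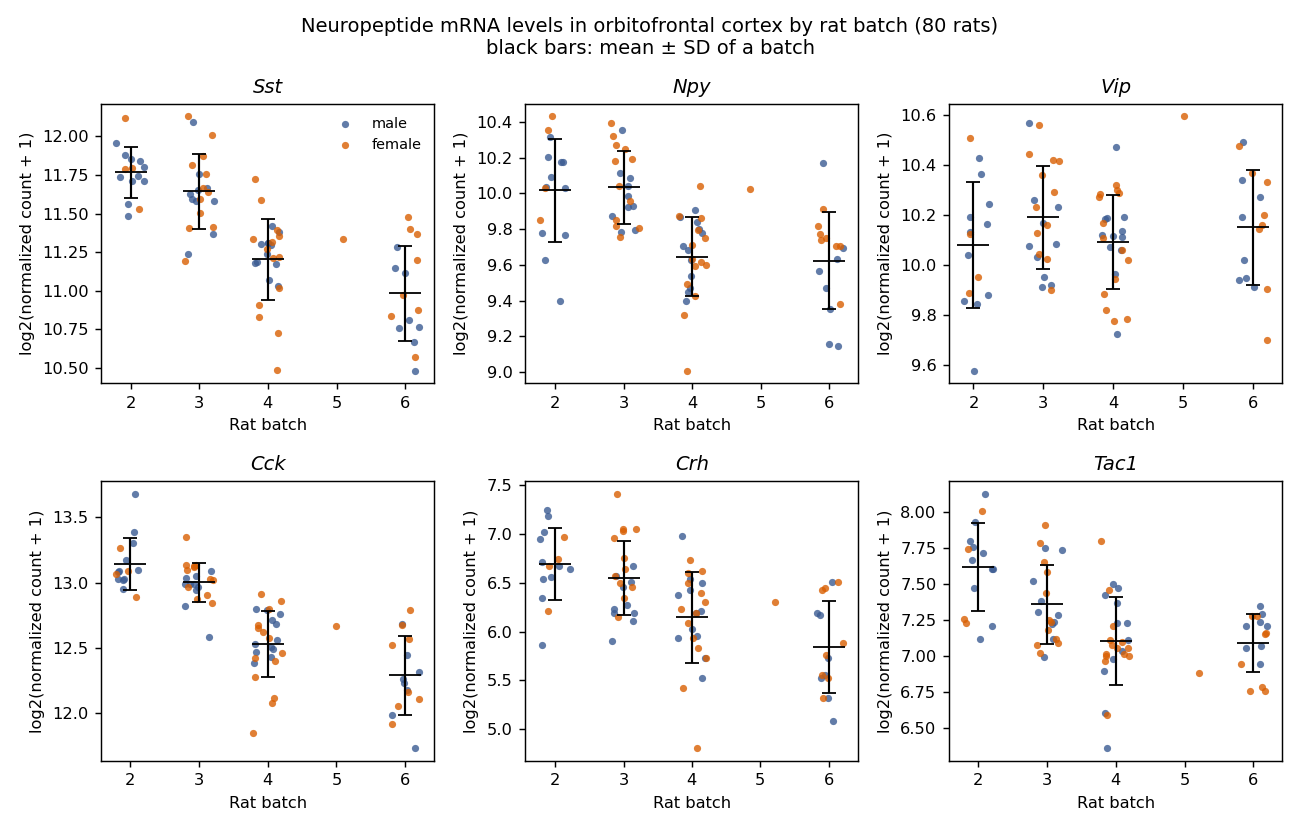
Log2(normalized count + 1) of each gene (vertical axes) in each rat, by rat batch (horizontal axes), with males in blue, females in orange and black bars for the batch mean ± SD. Sst and Cck of batch 6 lie wholly below batch 2, while the batches overlap throughout for Vip.

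Across batches 2, 3, 4 and 6 together, 5 of the 6 genes passed the limma F test, against 64.7% of all genes. The limma adjusted p was 3.46e-17 for Cck, 2.61e-14 for Sst, 1.49e-08 for Npy, 4.50e-07 for Crh and 1.92e-06 for Tac1. For Vip it was 0.399. Batch differences were therefore common in this table, and the count of 5 of 6 is to be read against that share. In the contrast of batch 6 with batch 2, 5 of the 6 were lower, where 26.6% of all genes were lower and 27.2% higher.

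The other contrasts share batches with this one, so their values are given side by side and do not support each other. Batch 4 less batch 2 was -0.61 for Cck, -0.58 for Sst, -0.58 for Crh, -0.50 for Tac1 and -0.39 for Npy, all past the limma threshold, and 0.00 for Vip. In that contrast 24.1% of all genes were lower. In females alone Crh was at -0.55 and not called (limma adjusted p = 0.108). Batch 4 less batch 3 was -0.47 for Cck, -0.44 for Sst, -0.40 for Crh, -0.39 for Npy and -0.26 for Tac1, all past the threshold, where 21.6% of all genes were lower. Vip differed there by -0.10 (limma adjusted p = 0.190), and in males alone Crh was at -0.11 and not called. Tac1 was called in neither sex alone, at -0.25 in males (limma adjusted p = 0.126) and -0.26 in females (limma adjusted p = 0.0707). Batch 6 less batch 3 was called lower in the same 5 genes, where 25.1% of all genes were lower, from -0.71 for Cck to -0.27 for Tac1, which in males alone was at -0.18 and not called (limma adjusted p = 0.282).

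Fewer of the 6 genes were called between batches 2 and 3 and between batches 4 and 6. Batches 3 and 4, also neighbours in this order, differed as given above. Over all genes, 7343 were called between batches 3 and 4, 1676 between batches 2 and 3 and 2329 between batches 4 and 6. Batch 3 less batch 2 was called for 0 of the 6 genes in limma, against 9.79% of all genes. The lowest adjusted p was 0.0831 for Tac1. Tac1 was also the lone gene of the 6 with an unadjusted p under 0.05, which 4067 of all 17123 genes had. Batch 6 less batch 4 was called lower for Cck at -0.24 (limma adjusted p = 0.0158) and Sst at -0.22 (limma adjusted p = 0.0490), where 7.49% of all genes were lower. In females alone these were -0.13 and -0.083 and neither was called, and with depth as a term Sst had a limma adjusted p of 0.0543. Crh differed by -0.30 there without passing (limma adjusted p = 0.126). Npy at -0.02 and Tac1 at -0.01 had batches 4 and 6 at one level. Relative to batch 2, Sst, Cck and Crh thus had a further difference from batch 4 to batch 6, called in Sst and Cck, that Npy and Tac1 did not show. Whether it was larger in one gene than in another was not tested.

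**Figure D2:**
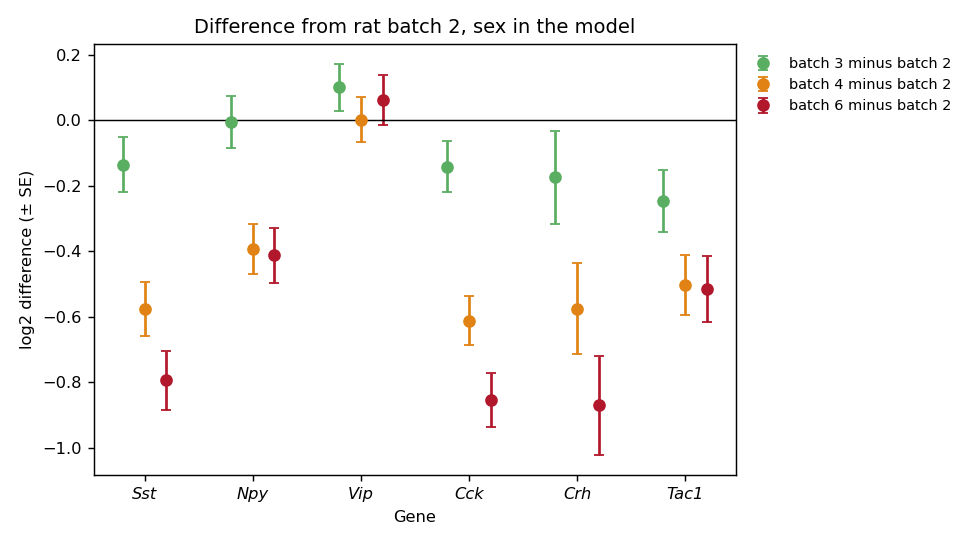
Log2 difference of rat batches 3, 4 and 6 from batch 2 (vertical axis, points with SE from the limma model with sex as a term) for each gene (horizontal axis). Batch 6 lies at -0.85 for Cck and -0.79 for Sst but at 0.06 for Vip.

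The columns of the table fell into 3 stretches of 21, 13 and 46 libraries, each with rat identifiers in ascending order. Batches 4, 5 and 6 lay wholly in the third, while batch 2 had 14 rats in the first and 1 in the second. Batch 3 had 7, 12 and 3 rats in the stretches in order. What a stretch was is not given in the sources used here. With stretch as a term, limma still called the batches different for Cck (adjusted p = 0.0118) and Sst (adjusted p = 0.0225). It did not for Crh (adjusted p = 0.115), Npy (adjusted p = 0.417) or Tac1 (adjusted p = 0.840). Of all 17123 genes, 3178 were called in that test. In that model batch 6 less batch 2 was -0.60 for Sst (SE 0.18) and -0.55 for Cck (SE 0.17), both still called, where 620 of all genes were lower. Without a call it was -0.77 for Crh (SE 0.32) and -0.35 for Npy (SE 0.18), close to the values without the term but with about 2 times the SE, and -0.20 for Tac1 (SE 0.21), where the difference itself was smaller.

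The other contrasts held less well with stretch as a term. Batch 4 less batch 2 was called for 0 of the 5 genes, at -0.38 for Sst, -0.31 for Cck, -0.48 for Crh, -0.33 for Npy and -0.19 for Tac1 (limma adjusted p from 0.208 to 0.649). Of all 17123 genes, 363 were called lower in that contrast. Batch 4 less batch 3 was also called for 0 of the 5 genes, at -0.19 for Sst, -0.21 for Cck, -0.39 for Crh, -0.24 for Npy and -0.085 for Tac1. There 0 of the 17123 genes of the table were called, so this is no trait of the 5. Batch 6 less batch 3 was kept for Cck at -0.46 (limma adjusted p = 0.0378), where 241 of all genes were called lower. It was lost for Sst at -0.40 (limma adjusted p = 0.0966), Crh at -0.68 (limma adjusted p = 0.116), Npy at -0.26 and Tac1 at -0.097. Batch 6 less batch 4, both within the third stretch, kept Cck (limma adjusted p = 0.0129) and Sst (limma adjusted p = 0.0391), where 1385 of all genes were lower. Vip was called in no contrast with this term, but it was not level. It was at -0.24 for batch 6 less 2 (SE 0.16) and -0.31 for batch 4 less 2 (SE 0.16). For batch 4 less 3 it was at -0.32 (SE 0.13, limma adjusted p = 0.237), for batch 6 less 3 at -0.26 and for batch 6 less 4 at 0.06. In this model Vip thus did not stand apart from Npy and Tac1.

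Within batch 3 alone, the 3 rats of the third stretch had normalized counts of 6125 to 7336 for Cck, below the 7523 to 9015 of the 12 rats of the second stretch and the 7658 to 10445 of the 7 rats of the first. Their Sst of 2337 to 3066 overlapped the 2905 to 4479 of the second stretch. The third stretch of batch 3, of 3 rats, thus stood below the others in Cck, while the first and second overlapped. Of all genes, 1.29% had the third stretch wholly below the others in this batch. Inside the third stretch, batch 6 less batch 4 was -0.24 for Cck (limma adjusted p = 0.0462) and -0.22 for Sst (limma adjusted p = 0.0805), with 6.77% of all genes lower. Inside the first stretch, batch 3 less batch 2 was called for 0 of the 6 genes (1.94% of all genes). Sst came nearest at -0.26 (limma adjusted p = 0.115). It was the lone gene of the 6 at an unadjusted p under 0.05, which 3260 of all 17123 genes had. Both within-stretch comparisons were added after the values had been seen.

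Rat batch accounted for 67.5% of the variance of log2 Cck, 60.0% for Sst, 41.2% for Npy, 36.7% for Tac1, 35.7% for Crh and 9.90% for Vip. These shares used all 80 rats. The single rat of batch 5, highest of all in Vip, counted as a batch of its own, which adds to the share of Vip. The median over the 14803 genes with a mean log2 of at least 3 was 22.1%. Vip lay below that median and the other 5 genes above it. Column stretch in place of batch gave 61.7% for Cck, 55.8% for Sst, 40.7% for Npy, 28.7% for Crh and 2.15% for Vip. For Tac1 the share of stretch was above that of batch. The median of stretch over the same genes was 16.7%. Batch has more groups than stretch, which can raise its share. Batch and stretch overlap strongly, so these shares do not separate batch from stretch. The first principal component of the log2 values held 14.4% of the variance of all genes. After sex and batch were removed it correlated at r = 0.62 with Cck and 0.58 with Sst, at 0.33 with Crh, 0.32 with Npy and 0.25 with Tac1, and at -0.02 with Vip (n = 79 rats). Cck and Sst thus moved with the main axis of variation of the whole table, and Vip did not.

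Set against Vip in the same library, the counts of the other peptides describe the same order. Vip was picked for this after it was seen to be level across batches, so the ratios restate the differences above and carry no test. The Sst to Vip ratio of normalized counts had geometric means of 3.22, 2.73, 2.16 and 1.78 in batches 2, 3, 4 and 6, and the Cck to Vip ratio 8.36, 7.02, 5.43 and 4.40. Since the counts are not per length, a ratio has meaning only between rats.

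The second question was whether males and females differed. Sst ran from 1429 to 4361 normalized counts in males (median 2666) and from 1432 to 4479 in females (median 2690). Crh ran from 33 to 151 in males (median 76) and from 27 to 169 in females (median 85). The sexes overlapped over nearly the whole range in both, and likewise in Npy, Vip, Cck and Tac1.

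With batch in the model, the log2 difference of males from females was -0.12 for Crh (SE 0.10), -0.08 for Npy (SE 0.05), -0.04 for Sst (SE 0.06) and -0.04 for Vip (SE 0.05). It was 0.04 for Tac1 (SE 0.06) and 0.00 for Cck (SE 0.05). By limma, 0 of the 6 genes differed between the sexes, with adjusted p from 0.815 to 0.997, and 0 had an unadjusted p under 0.05. Of all genes, 0.117% were called, and 1223 of the 17123 had an unadjusted p under 0.05. Over 18 alternatives per gene, 0 of 108 fits called a sex difference. The interaction of sex and batch was called for 0 of the 6 genes (limma adjusted p = 1.000) and for 0% of all genes. Unadjusted, 0 of the 6 and 451 of all genes had p under 0.05.

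The third question was how far rats differed once sex and batch were taken out. The residual SD on the log2 scale was 0.25 for Sst, 0.24 for Npy, 0.22 for Vip, 0.23 for Cck, 0.42 for Crh and 0.28 for Tac1 (80 rats). Low counts spread more on a log scale, so each was set beside the genes within 0.5 of its own mean. For those neighbours of Cck the median SD was 0.12, and 97.6% of the 377 had a smaller SD than Cck. For Sst the median was 0.13 and 95.9% of 1212 genes had a smaller SD. These cortical peptide mRNAs thus varied more from rat to rat than most genes of like level.

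Npy, Vip and Crh stood less far out. For Npy the median SD of its neighbours was 0.15, with 90.3% of 2326 genes smaller, and for Vip it was 0.14, with 87.6% of 2156 smaller. For Crh it was 0.31, with 81.6% of 1363 smaller, and for Tac1 0.24, with 69.3% of 1744 smaller. Tac1 was the least unusual for its level. Counting error alone, on the recovered reads, would give an SD of 0.030 for Sst, 0.051 for Npy, 0.046 for Vip, 0.019 for Cck, 0.178 for Crh and 0.125 for Tac1. The reads carried no molecular identifiers, so these cover counting error only. The spread exceeded it in each gene, least so in Tac1 and Crh.

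The extreme rats show the same structure. Of the 10 rats with the lowest Sst, 7 were of batch 6 and 3 of batch 4, and the same was true of the 10 lowest for Cck and for Crh. Of the 10 rats highest in Sst, 5 were of batch 2 and 5 of batch 3. For Vip, by contrast, the 10 lowest rats held 4 of batch 2, 5 of batch 4 and 1 of batch 6. Sst and Cck shared 8 of their 10 lowest rats and 4 of their 10 highest. Sst and Vip shared 2 of their 10 lowest and 0 of their 10 highest.

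The fourth question was which of these peptides moved together from rat to rat. Residuals after sex and batch were correlated over 79 rats for the 15 pairs of genes. Each gene was also used as a term in a limma model over the other 17122 genes, and the larger of the 2 adjusted p of a pair is given. Of the 15 pairs, 12 had a positive r and 6 were called in both directions of the model. For comparison, 13.3% of all genes were called as moving the same way as Sst, 5.70% as Npy, 6.20% as Vip, 14.2% as Cck, 3.83% as Crh and 1.14% as Tac1. Of the 5 other members, 3 were called with Sst and 3 with Cck, 3 with Crh, 2 with Npy, 1 with Vip and 0 with Tac1, to be read against those shares.

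**Figure D3:**
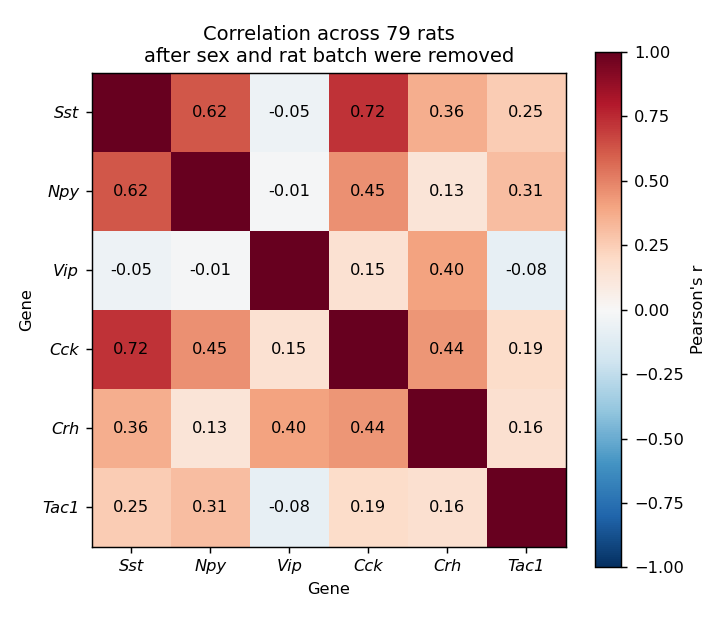
Pearson's r between the residual log2 levels of each pair of genes across 79 rats, in colour and in numbers, with sex and rat batch removed. The largest are Sst and Cck at 0.72 and Sst and Npy at 0.62, and Vip is near 0 with Sst, Npy and Tac1.

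Sst and Cck had the closest relation of the 15 pairs, with r = 0.72 and rho = 0.69 (permutation test, p = 1e-05 for each, limma adjusted p = 2.45e-10). Without the 2 rats farthest from the median it was r = 0.68. In batches 2, 3, 4 and 6 fitted alone, r was 0.43, 0.53, 0.87 and 0.80. It was thus positive in each batch, and whether it differed between batches was not tested. Of the 17122 other genes, Cck ranked 5 by its r with Sst.

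Sst and Npy, which are made together in part of the dendrite-targeting cells, had r = 0.62 and rho = 0.61 (permutation test, p = 1e-05 for each, limma adjusted p = 8.42e-06). Without the 2 farthest rats it was r = 0.61. Within batches r was 0.45, 0.78, 0.62 and 0.59 in order. Sst ranked 2 of 17122 genes by its r with Npy, and Npy ranked 88 by its r with Sst. The third side of this triangle, Npy and Cck, had r = 0.45 and rho = 0.50 (permutation test, p = 4e-05 and 1e-05, limma adjusted p = 0.00228), and within batches 0.60, 0.46, 0.48 and 0.35.

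Crh joined this group less firmly. With Cck it had r = 0.44 and rho = 0.42 (permutation test, p = 0.00050 and 0.00059, limma adjusted p = 0.00333). With Sst it had r = 0.36 and rho = 0.29 (permutation test, p = 0.00207 and 0.01403, limma adjusted p = 0.0207), and r = 0.24 without the 2 farthest rats. A female of batch 4 was lowest of that batch in Sst (1432 normalized counts), Cck (3688) and Crh (27). Without this rat, a check added after the values were seen, Sst and Crh had r = 0.26 and were no longer called (limma adjusted p = 0.137), while Cck and Crh had r = 0.35 (limma adjusted p = 0.0295). Within batches, Cck and Crh had r = 0.32, -0.14, 0.69 and 0.33, and Sst and Crh had 0.57, 0.090, 0.59 and 0.17.

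The relations of Crh also looked unequal between the sexes. In females alone r was 0.67 with Cck and 0.64 with Sst, and in males alone 0.049 and -0.13. A test of that difference, added after these values were seen, asked in limma whether the slope on Crh differed between the sexes. For Sst the slope was lower by 0.50 in males with an unadjusted p of 8.40e-05, but the limma adjusted p over 17122 genes was 0.106. For Cck it was lower by 0.36, with a limma adjusted p of 0.182. Without the rat of lowest Crh, r in females was 0.56 with Sst and 0.58 with Cck, and the adjusted p of the slope difference was 0.422 for Sst. With Crh as the term, 0 genes passed, so the sexes were not shown to differ.

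Among the 6 genes, Vip was called only with Crh, the peptide that many Vip cells also make. Vip and Crh had r = 0.40 and rho = 0.43 (permutation test, p = 0.00056 and 0.00022, limma adjusted p = 0.00883). Without the 2 farthest rats it was r = 0.42, and within batches r was 0.089, 0.37, 0.46 and 0.58. The sign was positive in each batch, near 0 in batch 2. With the somatostatin group Vip had r = -0.05 for Sst (permutation test, p = 0.677, limma adjusted p = 0.828) and -0.01 for Npy (permutation test, p = 0.922, limma adjusted p = 0.966).

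**Figure D4:**
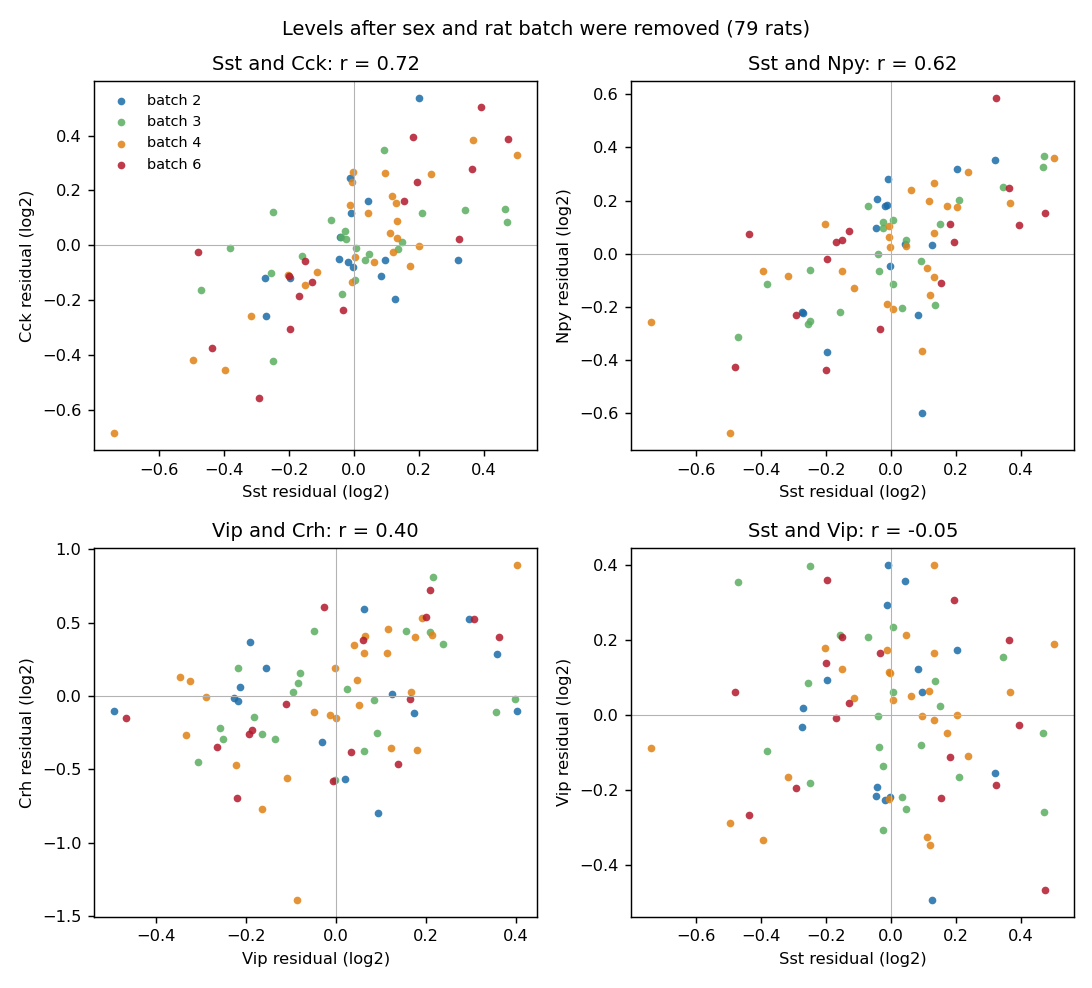
Residual log2 levels of 79 rats after sex and rat batch were removed, 1 gene on each axis, coloured by rat batch. Sst rises with Cck and with Npy, Crh rises with Vip, and Sst and Vip form a cloud without slope (r = -0.05).

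All pairs of Vip other than that with Crh changed sign between batches. In batches 2, 3, 4 and 6, Sst and Vip had r = -0.078, -0.38, 0.31 and -0.20, and Npy and Vip had -0.032, -0.32, 0.38 and -0.24. Vip and Cck had a pooled r of 0.15 (permutation test, p = 0.214, limma adjusted p = 0.414), made of 0.56, -0.63, 0.48 and -0.11 in batches 2, 3, 4 and 6. Vip and Tac1 had a pooled r of -0.08 (permutation test, p = 0.474, limma adjusted p = 0.758), made of -0.62, -0.17, 0.11 and 0.50. The pooled values near 0 thus cover batches with r of either sign. In batch 3, 1 male had both the highest Vip (1519 normalized counts) and the lowest Cck (6125) of the 10 males. That male was 1 of the 3 rats of batch 3 in the third column stretch. The other rats there had Vip of 1512 with Cck of 7336, and Vip of 1086 with Cck of 7255. How far the r values of batch 3 rest on that male or on stretch was not tested. Whether batches differed in these slopes was not tested.

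Tac1 moved weakly with the somatostatin group. With Npy it had r = 0.31 and rho = 0.25 (permutation test, p = 0.00599 and 0.03412), and with Sst r = 0.25 and rho = 0.27 (permutation test, p = 0.0201 and 0.0148). Over all genes these reached limma adjusted p of 0.120 and 0.212 and were not called. Both were positive in each of the 4 batches. With Cck, Tac1 had r = 0.19 (permutation test, p = 0.0775, limma adjusted p = 0.401) and with Crh r = 0.16 (permutation test, p = 0.15, limma adjusted p = 0.497). Npy and Crh had r = 0.13 (permutation test, p = 0.282, limma adjusted p = 0.550).

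**Figure D5:**
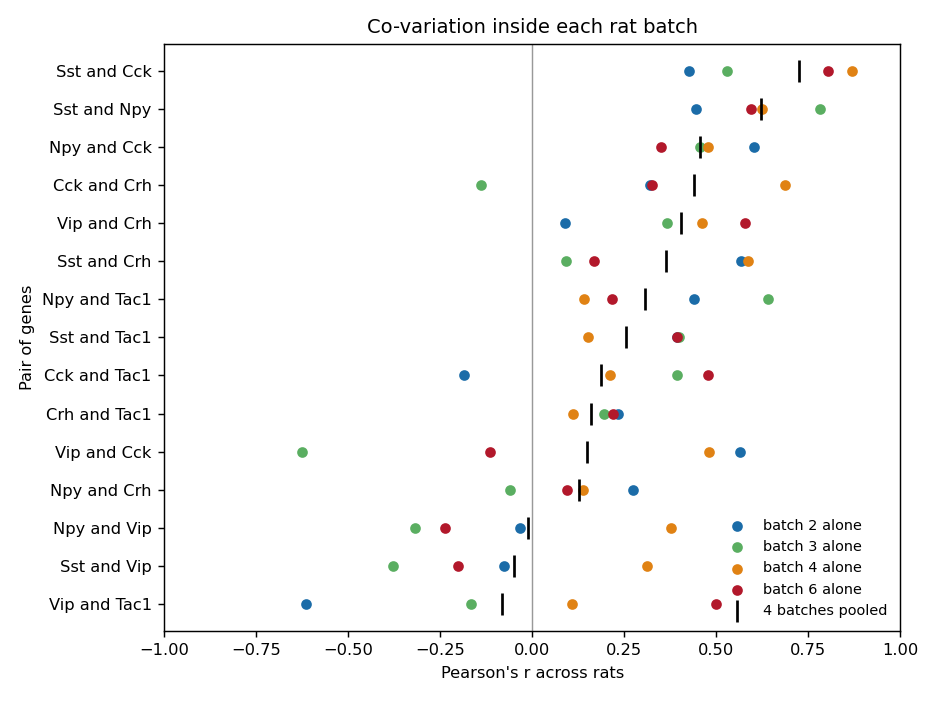
Pearson's r across rats (horizontal axis) for the 15 pairs of genes (vertical axis), with coloured points for rat batches 2, 3, 4 and 6 alone and black ticks for the 4 pooled. Sst with Cck, Sst with Npy and Npy with Cck are at 0.35 or above in each batch, while Vip with Cck runs from -0.63 to 0.56.

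Part of this co-variation was shared with the table at large. After removal of the first principal component, Sst and Npy kept r = 0.56, Sst and Cck 0.57, and Vip and Crh 0.43, all still called by limma. Npy with Cck (r = 0.34, limma adjusted p = 0.0774), Cck with Crh (r = 0.32, limma adjusted p = 0.0738) and Sst with Crh (r = 0.22, limma adjusted p = 0.291) were no longer called. Of 17122 genes, 284 were then called the same way as Sst, 223 as Npy, 1222 as Vip, 628 as Cck and 539 as Crh. After removal of 20 components, Sst and Npy alone of the 6 pairs passed, at r = 0.58 (limma adjusted p = 0.0267), and Sst with Cck had r = 0.47 (limma adjusted p = 0.0921). Sst with Crh had r = 0.37, as before the removal, but was not called (limma adjusted p = 0.278). With 20 components only 8 of 17122 genes were called the same way as Sst, 31 as Npy, 0 as Vip, 56 as Cck and 2 as Crh. Few genes of the table passed in that model, so a call lost there is no trait of the pair.

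Without removal of sex and batch, r over the 79 rats was 0.90 for Sst and Cck, 0.78 for Sst and Npy, 0.70 for Npy and Cck, 0.69 for Cck and Crh and 0.65 for Sst and Crh. For Vip it was -0.01 with Sst, 0.05 with Npy and 0.10 with Cck. The larger values hold the batch differences described above.

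Partners outside the 6 were sought by the residual r among genes with a mean log2 of at least 3. The gene most like Cck was ENSRNOG00000018326 (r = 0.82, n = 79), and the one most like Sst was ENSRNOG00000021177 (r = 0.77, n = 79). These genes have no symbol in the sources used here. For the remaining members the highest r with a gene outside the 6 was 0.70 for Vip, 0.69 for Crh, 0.64 for Npy and 0.57 for Tac1. Of the 6 genes, Tac1 had the least close partner in this search.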

How the data were processed

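RNA-Seq values of 80 orbitofrontal cortex libraries were analysed. According to the labels and methods of the study, the authors trimmed reads with cutadapt, counted them per gene with RSEM on the Ensembl rat transcriptome (build Rnor_6.0), scaled them by an upper quartile adjustment in DESeq2 and deposited log2 values with a pseudocount of 1. The labels marked 8 further samples as removed, not analysed here. The scaling hides depth, which was recovered from the whole-number steps in each library, where 99.78% to 100% of the values from 1 to 300 equalled a multiple of the step rounded to the nearest whole number.

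Models used limma 3.58.1 in R 4.3.3 (lmFit, eBayes with a mean trend) on all 17123 genes with Benjamini-Hochberg adjustment over them and a threshold of 0.05, checked on simulated data. Sex was tested on 80 libraries with rat batch as a factor, and batches 2, 3, 4 and 6 on 79 libraries with sex as a term. Correlations used 100000 two-sided permutations within sex and batch (Python 3.11.15, numpy 2.4.6, scipy 1.17.1), and their limma adjusted p is the larger of the 2 with either gene as the term. The smallest p they can give is 1e-05. The genes, lists and rules were chosen with earlier results of these data known. The 6 genes were named in every comparison, with the 1 other gene most like each. Gene lists by symbol (receptors, peptide processing, other peptides, cell type markers) could not be counted, since 0 of 17123 identifiers matched a symbol in the RefSeq table, so the labelled tissue was not checked against markers. The alternatives tried were a pseudocount of 10, a mean filter of 3, quantile normalization, voom on recovered reads, array weights, terms for depth, column stretch or 20 principal components, leaving out the library listing most genes at 0, and single batches or sexes. Figures used matplotlib 3.10.9.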

Additional observations from a re-analysis of the deposited data

Results flagged for a closer look

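In groups of 4 to 10 rats of the same sex and batch, 24 sets of values (6 genes in 4 groups) were checked for a rat far from the rest, and 3 were found. Chance gives about 1 in 20 such groups. One male of batch 3 had the highest Vip of the 10 males of that batch, 1519 normalized counts against 1227 for the next. The same rat had their lowest Cck, 6125 against 7255. A female of batch 6 had the lowest Npy of 8 females, 666 against 835. No explanation of these values was tested.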

How the results depend on the processing

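No paired analysis was possible within this tissue, because each rat gave a single orbitofrontal library and a rat's number only follows accession order. The other brain regions of the study were not used here. Sex and interaction stayed uncalled for all 6 genes in every alternative. The batch calls were lost in Npy (limma adjusted p = 0.417), Crh (0.115) and Tac1 (0.840) with the column stretch term, where batch 6 less 2 stayed at -0.77 for Crh and -0.35 for Npy with a larger SE and was -0.20 for Tac1. With 20 principal components the adjusted p was 0.981 for Sst, 0.873 for Npy, 0.883 for Cck, 0.793 for Crh and 0.668 for Tac1. These components were computed from the same values with the batch differences in them. Alone they held 92.8% of the variance of log2 Cck and 85.8% of that of Sst. A model with them as terms therefore cannot decide on the batch calls or their signs. All other models kept the 5 batch calls, and Vip was called in none. Single contrasts that were called turned sign with 20 components: batch 4 less 2 was 0.040 for Sst, 0.055 for Npy, 0.11 for Crh and 0.34 for Tac1. Batch 6 less 2 was 0.14 for Npy, 0.35 for Crh and 0.23 for Tac1. Batch 4 less 3 was 0.0067 for Sst and 0.21 for Tac1, batch 6 less 3 was 0.033 for Npy, 0.16 for Crh and 0.095 for Tac1, and batch 6 less 4 was 0.020 for Cck. None of these was called.

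Over all genes, 20 were called for sex, 31 with array weights, 10 with 20 components, 9, 10 and 10 in batches 3, 4 and 6 alone and 13 without batch 4. For batch 11078 were called, 3178 with the stretch term, 1 with 20 components and 6156 in females. For the interaction 0 were called, 2 with a pseudocount of 10 and 1 each with array weights and with the stretch term. For batch 6 less 2, 9209 were called, 1685 with the stretch term, 1 with 20 components and 3925 in females. For batch 4 less 2 the main count of 8314 became 784, 0 and 3632 in the same order. For batch 6 less 3, 8717 became 895, 0 and 5674. For batch 4 less 3, 7343 became 0 with the stretch term, 1 with 20 components and 3333 in males. For batch 6 less 4, 2329 became 4034 with array weights, 1 with 20 components and 4 in females. For batch 3 less 2, 1676 became 257 with the stretch term, 0 with 20 components, 0 in females and 333 inside the first stretch.

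Of the 6 called pairs, the call was lost in smaller sets of rats, where r was as follows. Sst and Npy had 0.45, 0.62 and 0.59 in batches 2, 4 and 6 and 0.57 in males. Sst and Cck had 0.43, 0.53 and 0.80 in batches 2, 3 and 6. Npy and Cck had 0.60, 0.46, 0.48 and 0.35 in batches 2, 3, 4 and 6, 0.44 in males and 0.46 in females. Vip and Crh had 0.089, 0.37, 0.46 and 0.58 in the batches, 0.36 in males and 0.41 in females. Sst and Crh had 0.57, 0.090 and 0.17 in batches 2, 3 and 6 and -0.13 in males. Cck and Crh had 0.32, -0.14 and 0.33 in batches 2, 3 and 6 and 0.049 in males. Without the rat of lowest Crh it was 0.26 for Sst and Crh, and in females without that rat 0.45 for Npy and Cck and 0.45 for Vip and Crh. With the first component removed, r was 0.22 for Sst and Crh, 0.34 for Npy and Cck and 0.32 for Cck and Crh. With 20 components it was 0.47 for Sst and Cck, 0.37 for Sst and Crh, 0.20 for Npy and Cck, 0.30 for Vip and Crh and 0.20 for Cck and Crh. Without removal of sex and batch, limma also called Sst and Tac1 (0.55), Npy and Crh (0.45), Npy and Tac1 (0.52), Cck and Tac1 (0.54) and Crh and Tac1 (0.42). Such calls were common there: of 17122 genes, 4953 were called the same way as Sst, 4445 as Npy and 5045 as Cck. For Crh it was 4037 and for Tac1 3701. In batches 2, 3, 4 and 6 alone, 0, 3022, 578 and 0 of all genes were called with Sst in either direction. With Npy it was 2, 191, 0 and 0, and with Vip 970, 7, 415 and 2. With Cck it was 680, 3108, 523 and 443, and with Crh 0, 0, 423 and 195. In males it was 1242 with Sst, 0 with Npy, 809 with Vip, 2450 with Cck and 251 with Crh. In females it was 2099, 644, 210, 1756 and 379. Where 0 genes passed, a lost call is no trait of the pair. The smaller sets held fewer rats, and the cause of these changes was not tested.

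The SD without removal of sex and batch was 0.39 for Sst, 0.31 for Npy, 0.40 for Cck, 0.52 for Crh and 0.34 for Tac1. With 20 components it was 0.17 for Sst, 0.18 for Npy, 0.14 for Vip, 0.12 for Cck, 0.33 for Crh and 0.22 for Tac1. The scaled median absolute deviation was 0.22 for Sst, 0.22 for Npy, 0.24 for Vip, 0.18 for Cck and 0.22 for Tac1, and a pseudocount of 10 gave 0.37 for Crh. Depth limits Crh and Tac1 most, where counting error is largest beside the spread.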

Other observations

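Crh held the widest sex gap inside a single batch. In batch 3 it ran from 59 to 101 normalized counts in 10 males (median 75) and from 70 to 169 in 12 females (median 103), with overlap. The log2 difference of males from females was -0.43 in batch 3 fitted alone, but 0.054, 0.10 and -0.17 in batches 2, 4 and 6, and limma called none of them (adjusted p = 0.809 in batch 3). The batch was singled out after its values were seen.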
